A study of Mus musculus with 26 samples.

Results

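The circadian clock drives daily rhythms of transcription through output factors that it controls directly, and 10 genes of that layer are described here: Nr1d1, Nr1d2, Dbp, Tef, Hlf, Nfil3, Bhlhe40, Bhlhe41, Rora and Rorb. They were chosen by name and function, not by a measured value, and all 10 were measured among 19505 named genes. RNA of mouse neural stem and progenitor cell cultures was labelled with biotin and read on 26 arrays, 1 sample to an array. The cultures were derived from C57BL/6 telencephalon, kept separate for each animal, and grown with epidermal and fibroblast growth factors. The labels give the stage as postnatal day 0 and also call the tissue fetal. The 4 groups were SOX2 knockout (KO) cells with 100 nM dexamethasone (Dex, a synthetic glucocorticoid) for 4 h (n = 7), SOX2 KO cells with ethanol vehicle for 4 h (n = 7), wild-type (WT) cells with 100 nM Dex for 4 h (n = 6), and WT cells with vehicle for 4 h (n = 6), all after passage 3. Cultures 7 to 13 were SOX2 KO and cultures 1 to 6 were WT, and each gave 1 Dex and 1 vehicle array. SOX2 is a transcription factor that maintains neural stem cells, and how its gene was deleted is not given in the sources used here. Animals of both sexes were used, with no sex given for any array.

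In the clock, CLOCK and BMAL1 bind E-box DNA elements and switch on their own repressors together with output genes. NR1D1 and NR1D2 (REV-ERB alpha and beta) are heme-binding nuclear receptors that repress transcription at the same DNA elements where RORA and RORB activate it. DBP, TEF and HLF are proline- and acid-rich bZIP factors that activate transcription from D-box elements, NFIL3 represses from those elements, and BHLHE40 and BHLHE41 (DEC1 and DEC2) repress at E-boxes. Glucocorticoids are known to reset clocks in cultured cells by acting on Per1.

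To show the sequence next to which these genes are read, 4 promoter windows are printed, from 250 bases before to 50 bases after a RefSeq transcription start in build GRCm38.p6. Nr1d1 and Hlf are shown because they had the lowest levels in SOX2 KO cells relative to WT cells, and Nr1d2 and Nfil3 because their windows hold a half-site for REV-ERB and ROR proteins. Windows were found for 9 of the 10 genes. They are the Nr1d1 window at chr11:98775328-98775627, minus strand, the Hlf window at chr11:90390868-90391167, minus strand, the Nr1d2 window at chr14:18239057-18239356, minus strand, and the Nfil3 window at chr13:52980990-52981289, minus strand. Each runs 5′ to 3′ along the gene, and capitals mark the half-site AGGTCA or its reverse complement TGACCT.
Nr1d1: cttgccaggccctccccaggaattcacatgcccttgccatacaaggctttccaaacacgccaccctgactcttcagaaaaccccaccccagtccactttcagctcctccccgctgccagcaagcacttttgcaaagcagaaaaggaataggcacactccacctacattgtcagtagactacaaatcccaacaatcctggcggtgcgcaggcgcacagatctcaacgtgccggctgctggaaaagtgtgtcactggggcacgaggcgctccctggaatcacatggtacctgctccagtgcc
Hlf: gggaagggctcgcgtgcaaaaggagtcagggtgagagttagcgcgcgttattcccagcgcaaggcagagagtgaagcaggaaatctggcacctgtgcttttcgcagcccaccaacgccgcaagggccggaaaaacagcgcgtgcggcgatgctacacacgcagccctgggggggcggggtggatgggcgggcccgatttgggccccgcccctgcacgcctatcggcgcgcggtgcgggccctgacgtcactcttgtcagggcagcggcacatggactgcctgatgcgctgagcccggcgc
Nr1d2: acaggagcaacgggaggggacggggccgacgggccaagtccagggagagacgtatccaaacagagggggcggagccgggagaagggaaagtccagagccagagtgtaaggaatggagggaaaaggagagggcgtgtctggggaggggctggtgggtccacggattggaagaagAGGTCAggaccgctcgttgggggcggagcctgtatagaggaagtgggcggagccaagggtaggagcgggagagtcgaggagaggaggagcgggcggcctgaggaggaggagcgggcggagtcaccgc
Nfil3: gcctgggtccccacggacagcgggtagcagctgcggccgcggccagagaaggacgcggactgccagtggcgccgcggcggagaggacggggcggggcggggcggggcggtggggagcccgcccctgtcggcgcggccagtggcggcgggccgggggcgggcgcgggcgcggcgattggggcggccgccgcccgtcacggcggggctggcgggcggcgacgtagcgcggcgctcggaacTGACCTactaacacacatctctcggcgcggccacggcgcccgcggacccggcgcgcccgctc
The half-site started at -77 in Nr1d2 and at -12 in Nfil3, counted from the first transcribed base as 0, and its letters occurred on either strand in 16.3% of 32851 windows of this length. The E-box CACGTG, which is its own reverse complement, occurred in both Tef windows and in the Bhlhe41 window, against 7.15% of all windows. No D-box (TTATGTAA, TTATGCAA or TTACGTAA, either strand) was found in the windows of these genes, against 1.78% of all windows. The glucocorticoid half-site AGAACA, searched on both strands, occurred in 1 of the 2 Tef windows, against 19.0% of all windows. The motifs do not overlap in any of these windows, and a match in letters is a description, not a binding site.

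Sox2, the deleted gene, was checked first. Its log2 level lay between 3.92 and 6.50 on the SOX2 KO arrays, against 12.17 to 14.39 on the WT arrays. The mean level of 11 neural stem and progenitor markers, Sox2 among them, was 11.37 to 12.76 over the 26 arrays, with single markers as low as 5.69 (Prom1) apart from Sox2. The lists of other cell types had means of 8.92 to 11.13 for astrocytes, 7.45 to 10.12 for the oligodendrocyte lineage, 7.64 to 8.97 for neurons, 4.89 to 5.73 for pericytes and fibroblasts, 4.69 to 5.59 for microglia and 4.26 to 4.77 for endothelium. Levels of different probes are not compared here, and the glial and neuronal lists held high single markers on every array, with Olig2 at 14.08 or more, Aldh1l1 at 13.61 or more and Map2 at 13.04 or more. Culture 4, a WT culture, went against its labels for glucocorticoid response. The receptor co-chaperone gene Fkbp5 differed by -2.03 log2 units between its arrays labelled Dex and vehicle, against 1.27 to 1.87 in the other WT cultures, and Per1 by -2.74 against 1.91 to 3.04. Every test was therefore run with all 13 cultures and without culture 4, and the pair is called the arrays labelled Dex and vehicle of culture 4. The cultures were clustered on all genes after the group means were removed, and the tree was cut into 3 array clusters. The number 3 was set and not found by the clustering, and no label names the clusters. They were cultures 1, 2, 3, 7 and 8, cultures 4, 10 and 12, and cultures 5, 6, 9, 11 and 13. The upper quartile of the arrays was 10.09 to 10.43 in cluster 1, 9.38 to 9.78 in cluster 2 and 9.58 to 9.79 in cluster 3. The Dex array of culture 12 had the lowest upper quartile, 9.38, and stood apart for several of the genes below.

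The first comparison asks whether 4 h of Dex changed the output factors. None of the 10 genes passed the test in either genotype. Per1 and Per2 rose in both genotypes once culture 4 was left out, a culture set apart by its Per1 and Fkbp5 values. Rora was the gene closest to a change, higher after Dex in all 7 SOX2 KO cultures, and Nr1d1 and Nr1d2 were lower on average after Dex in both genotypes by at most 0.30 log2 units. The test was limma with the culture as a block, and p-values were adjusted by Benjamini-Hochberg over the 19505 genes at a threshold of 0.05. For Dex in SOX2 KO, 0 of 10 genes were called, against 0.0718% of all genes, and 2 of 10 (Rora and Nr1d2) had an unadjusted p under 0.05, against 10.2% of all genes. With culture 4 out of the fit the called share of all genes was 0.251%, still with 0 of these 10 called, and Rora alone had an unadjusted p under 0.05, against 9.74% of all genes. For Dex in WT, 0 of 10 were called against 0.0% of all genes over all 6 cultures and against 0.169% without culture 4, and none had an unadjusted p under 0.05, against 3.87% and 4.93% of all genes.

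The median log2 fold change of the 10 genes was -0.06 in SOX2 KO cells, beside -0.02 over all genes, and -0.06 in WT cells (-0.03 without culture 4), beside 0.00 over all genes. The 95% intervals, not adjusted for the number of genes, lay between -0.72 and 0.82 log2 units for every one of the 10 genes in SOX2 KO cells. Over the 6 WT cultures they lay between -0.86 and 0.68, and without culture 4 between -0.68 and 0.82. All intervals over all cultures thus excluded a change of 1 log2 unit in either direction.

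**Figure D1:**
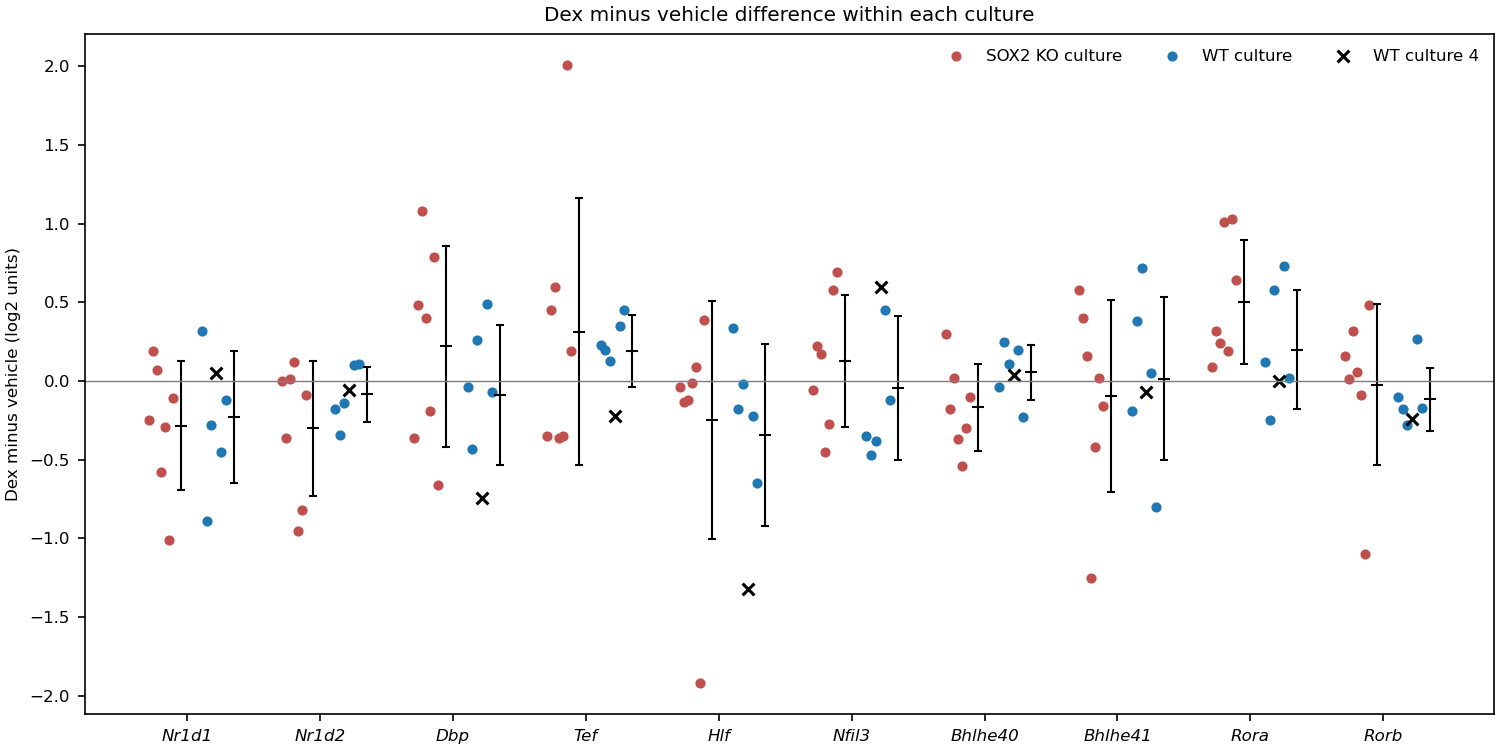
Difference in log2 level between the Dex and the vehicle array of each culture (y axis, log2 units) for the 10 genes (x axis), with SOX2 KO cultures in red, WT cultures in blue and WT culture 4 as a black cross. Bars give the mean ± SD of each genotype over all its cultures; Rora is the gene with all 7 SOX2 KO cultures above 0, and culture 12 is the SOX2 KO point at 2.01 for Tef and at -1.92 for Hlf.

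Among the repressors, Nr1d1 encodes REV-ERB alpha. On SOX2 KO arrays its level was 6.23 at the lowest, 7.81 at the median and 8.28 at the highest after Dex, against 7.24, 7.92 and 8.72 after vehicle. The WT arrays had 8.16, 8.59 and 9.16 after Dex, against 8.28, 8.91 and 9.31 after vehicle. The Dex and vehicle groups overlapped widely in both genotypes. Dex minus vehicle was negative in 5 of 7 SOX2 KO cultures and in 4 of 6 WT cultures. The mean differences were -0.28 ± 0.16 (SE) in SOX2 KO cells (limma adjusted p = 0.557) and -0.23 ± 0.17 in WT cells (-0.28 ± 0.19 without culture 4, adjusted p = 0.998 in both), neither past the threshold.

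Nr1d2 encodes REV-ERB beta, which shares DNA elements with its paralog. Its SOX2 KO levels were 7.19 at the lowest, 8.50 at the median and 8.94 at the highest after Dex, against 8.01, 8.93 and 9.13 after vehicle. In WT cells they were 8.29, 8.89 and 9.05 after Dex, against 8.31, 8.93 and 9.39 after vehicle. The SOX2 KO difference of -0.30 ± 0.14 (unadjusted p = 0.0477, limma adjusted p = 0.483) came mostly from 3 cultures. Cultures 11, 12 and 8 differed by -0.95, -0.82 and -0.36, while the other 4 lay between -0.09 and 0.12. The WT difference was -0.09 ± 0.15, and -0.09 ± 0.17 without culture 4 (adjusted p = 0.998 in both).

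Rora encodes the nuclear receptor that opposes the REV-ERBs, and it is known in the brain from the cerebellar phenotype of mice that lack it. Its levels in SOX2 KO cells were 7.31 at the lowest, 7.55 at the median and 8.84 at the highest after Dex, against 6.37, 7.20 and 8.75 after vehicle. The groups overlapped as levels, but Dex minus vehicle was positive in 7 of 7 cultures, from 0.09 in culture 7 to 1.03 in culture 12. Of all genes, 2.5% had the same sign in all 7 SOX2 KO cultures. The mean difference was 0.50 ± 0.15 (SE), a fold of 1.42 with a 95% interval of 0.19 to 0.82 log2 units, at an unadjusted p of 0.00381 and a limma adjusted p of 0.326, so it was not called. WT levels were 6.98, 8.06 and 8.43 after Dex, against 6.98, 7.75 and 8.60 after vehicle, and the mean difference was 0.20 ± 0.16, or 0.24 ± 0.18 without culture 4 (adjusted p = 0.998 in both). The direct test of the 2 genotypes' effects gave 0.30 ± 0.22 for Rora (adjusted p = 0.999), and 0.26 ± 0.24 without culture 4 (adjusted p = 1.0).

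The array holds 3 transcript clusters for Rora, and the one of highest mean is the one described above. They did not move alike in SOX2 KO cells. Dex minus vehicle averaged 0.50 ± 0.39 (SD, n = 7) on the first, 0.13 ± 0.34 on the second and 0.00 ± 0.45 on the third, and it was positive in 7, 4 and 3 of the 7 cultures. In culture 12, which gave 1.03 on the first, the other clusters gave -0.42 and -0.51. Over the 26 arrays the level of the first correlated with that of the second at r = 0.39 and with that of the third at r = 0.54, given as a description over arrays that share cultures. The identifiers of the first and second mark them as unmapped, so which Rora transcripts they read is not known here. With the mean of the 3 clusters in place of the first, the SOX2 KO difference was 0.21 (limma adjusted p = 0.578), and over the alternatives tried the adjusted p of Rora ran from 0.165 to 0.999 with culture 4 in the fit and from 0.151 to 0.999 with it out.

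**Figure D2:**
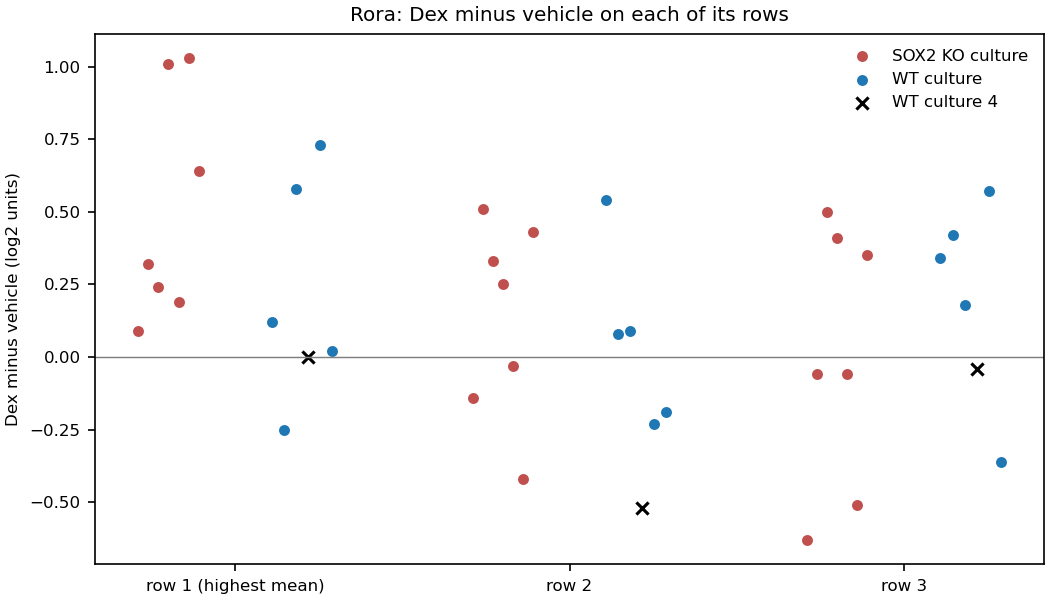
Dex minus vehicle difference in log2 units (y axis) of each culture on the 3 Rora transcript clusters (x axis, row 1 being the one of highest mean), with SOX2 KO cultures in red, WT cultures in blue and WT culture 4 as a black cross. The 7 SOX2 KO cultures lie between 0.09 and 1.03 on row 1 and fall on both sides of 0 on rows 2 and 3.

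Rorb encodes the ROR receptor best known from retina and cortical layer 4 neurons. Its SOX2 KO levels were 12.71 at the lowest, 13.52 at the median and 13.83 at the highest after Dex, against 13.24, 13.46 and 13.81 after vehicle. WT levels were 13.07, 13.50 and 14.11 after Dex, against 13.12, 13.66 and 14.39 after vehicle. No group stood apart, and the differences were -0.02 ± 0.15 (SE) in SOX2 KO cells and -0.12 ± 0.17 in WT cells (-0.09 ± 0.19 without culture 4). A second Rorb transcript cluster, correlated with the first at r = 0.81 over the arrays, gave differences of -0.16 and -0.18.

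None of the 3 PAR bZIP genes was called after Dex in either genotype. Dbp, whose rhythm is among the strongest clock outputs in many tissues, had SOX2 KO levels of 8.55 at the lowest, 9.47 at the median and 10.17 at the highest after Dex, against 8.58, 9.26 and 9.83 after vehicle. WT levels of Dbp were 8.95, 9.64 and 10.62 after Dex, against 9.02, 9.86 and 10.62 after vehicle. Its Dex differences ran both ways, from -0.66 to 1.08 in SOX2 KO cultures and from -0.74 to 0.49 in WT cultures. The means were 0.22 ± 0.19 (SE, limma adjusted p = 0.699) in SOX2 KO cells and -0.09 ± 0.21 (adjusted p = 0.998) in WT cells, where the value was 0.04 ± 0.22 without culture 4.

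Tef, thyrotroph embryonic factor, had a SOX2 KO level of 3.70 at the lowest, 4.37 at the median and 5.42 at the highest after Dex, against 3.41, 4.06 and 4.55 after vehicle. In WT cells the level was 4.04, 4.51 and 5.08 after Dex, against 4.24, 4.30 and 4.73 after vehicle. The SOX2 KO difference of 0.31 ± 0.22 (adjusted p = 0.628) was carried by culture 12, at 2.01. Without that culture it was 0.03 ± 0.14. Tef was higher after Dex in 5 of 5 WT cultures once culture 4 was left out, by 0.13 to 0.45, while 9.99% of all genes had the same sign in those 5 cultures. Over all 6 WT cultures, 0 of the 10 genes and 4.17% of all genes had the same sign. The WT difference of Tef was 0.19 ± 0.23 (SE) over all 6 cultures and 0.27 ± 0.26 without culture 4 (limma adjusted p = 0.998 in both). That SE uses the spread shared by both genotypes, while the 5 WT differences without culture 4 had an SD of 0.13.

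Hlf, hepatic leukemia factor, is also a regulator of stem cell quiescence in blood. After Dex its SOX2 KO level was 4.98 at the lowest, 5.80 at the median and 6.58 at the highest, against 5.42, 5.93 and 6.90 after vehicle. Its WT level was 6.50, 6.83 and 7.74 after Dex, against 6.18, 7.24 and 8.92 after vehicle. Single cultures moved the Dex differences in both genotypes. The SOX2 KO difference of -0.25 ± 0.23 (adjusted p = 0.711) was 0.03 ± 0.16 without culture 12, which differed by -1.92. The WT difference of -0.34 ± 0.24 (adjusted p = 0.998) was -0.15 ± 0.25 without culture 4, whose arrays labelled Dex and vehicle differed by -1.32.

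Nfil3, the repressor that competes for D-boxes, differed by 0.13 ± 0.16 (SE) after Dex in SOX2 KO cells and by -0.04 ± 0.18 in WT cells, where the value was -0.17 ± 0.18 without culture 4. Its SOX2 KO levels were 7.75 at the lowest, 8.44 at the median and 8.98 at the highest after Dex, against 7.86, 8.06 and 9.04 after vehicle. WT levels of Nfil3 were 6.72, 7.83 and 8.87 after Dex, against 6.12, 8.11 and 9.25 after vehicle. Cultures 4 and 5 held the 2 lowest WT values in both treatments.

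Bhlhe40 encodes DEC1, which also responds to hypoxia and other stimuli in many cell types. Its SOX2 KO levels were 11.57 at the lowest, 12.59 at the median and 13.53 at the highest after Dex, against 11.67, 12.70 and 13.90 after vehicle. WT levels were 11.64, 12.57 and 13.32 after Dex, against 11.44, 12.61 and 13.21 after vehicle. The 4 groups covered nearly the same range, and the differences were -0.17 ± 0.12 (SE) in SOX2 KO cells and 0.06 ± 0.13 in WT cells (0.06 ± 0.15 without culture 4). Bhlhe41 encodes DEC2, a paralog with the same E-box binding domain. In SOX2 KO cells Bhlhe41 was at 7.77, 8.27 and 9.79 after Dex, against 7.75, 8.14 and 9.52 after vehicle. In WT cells it was at 6.85, 8.26 and 8.90 after Dex, against 7.39, 8.17 and 8.85 after vehicle. The highest SOX2 KO values came from cultures 7 and 10, and the lowest WT values from culture 6 after Dex and culture 3 after vehicle. For Bhlhe41 the differences were -0.10 ± 0.20 in SOX2 KO cells and 0.01 ± 0.21 in WT cells (0.03 ± 0.24 without culture 4), over single-culture values from -1.25 to 0.58 and from -0.80 to 0.72. Neither DEC gene had a direction shared by all cultures of a genotype.

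**Figure D3:**
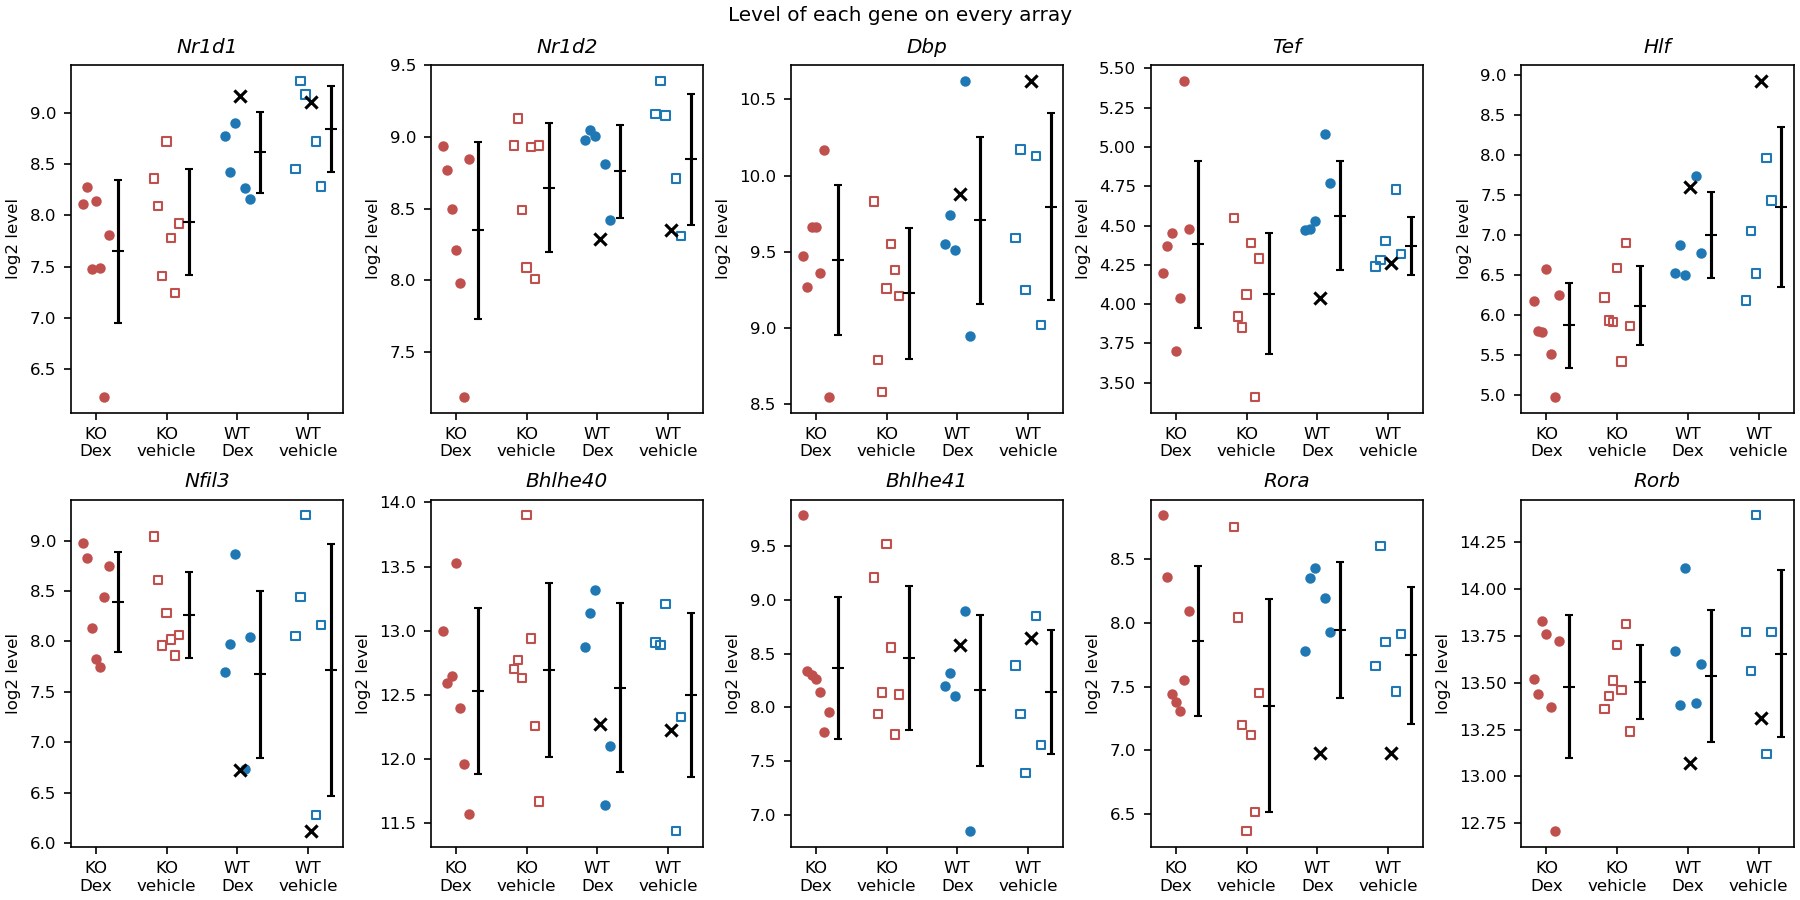
Log2 level (y axis) of the 10 genes on every array, 1 panel a gene, for SOX2 KO Dex (filled red), SOX2 KO vehicle (open red), WT Dex (filled blue) and WT vehicle (open blue), with WT culture 4 as a black cross and bars for mean ± SD. Nr1d1 and Hlf sit lower in the SOX2 KO groups, with means of 7.65 and 7.93 for Nr1d1 against 8.61 and 8.84 in WT, and the Dex and vehicle groups of a genotype overlap in every panel.

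Whether Dex acted differently in SOX2 KO and WT cells was tested directly for each gene. With all cultures, 0 of 10 genes and 0.0% of all genes were called, and 0 of 10 had an unadjusted p under 0.05, against 3.53% of all genes. The differences ran from -0.22 for Bhlhe40 to 0.31 for Dbp, each with a limma adjusted p of 0.999. Without culture 4, again 0 of 10 and 0.0% of all genes were called, 0 of 10 and 3.3% had an unadjusted p under 0.05, and the values ran from -0.23 to 0.30. The 2 Dex comparisons use separate cultures.

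The second comparison asks how the levels of these factors depend on SOX2. In both treatments Hlf and Nr1d1 had the lowest SOX2 KO levels relative to WT, with Hlf at 0.46 of the WT level after Dex and at 0.43 after vehicle, and Nr1d1 at 0.51 and 0.53. Neither passed the test with all arrays. Hlf passed it when the array cluster was a term of the fit, but not with that term and without culture 4. The clusters were made from these same arrays, so a pass with that term is not independent support. Nfil3 differed the other way, with SOX2 KO means above WT, and was not called. The remaining 7 genes differed by at most 0.57 log2 units. The fit had 1 mean per group and no block, since the genotypes are different cultures. Both arrays of a culture thus entered the estimate of spread as if independent. After Dex, 0 of 10 genes were called against 0.564% of all genes (0.554% without culture 4), and 2 of 10 (Nr1d1 and Hlf) had an unadjusted p under 0.05, against 7.56% of all genes (8.38% without culture 4, again the same 2). After vehicle, 0 of 10 were called against 0.559% of all genes (0.523% without culture 4). There 3 of 10 (Hlf, Nr1d1 and Dbp) had an unadjusted p under 0.05, against 5.17% of all genes, and 2 of 10 (Hlf and Nr1d1) without culture 4, against 6.27%.

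None of the 10 genes separated the genotypes completely. After Dex, 0 of 10 had SOX2 KO and WT arrays that did not overlap, against 0.482% of all genes over all cultures and 0.81% without culture 4. After vehicle it was also 0 of 10, against 0.518% and 0.805% of all genes. The median log2 difference of the 10 genes was -0.14 after Dex, beside -0.06 over all genes, and -0.25 after vehicle, beside -0.03 over all genes. Without culture 4 it was -0.25 after Dex, beside -0.08 over all genes, and -0.31 after vehicle, beside -0.05.

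**Figure D4:**
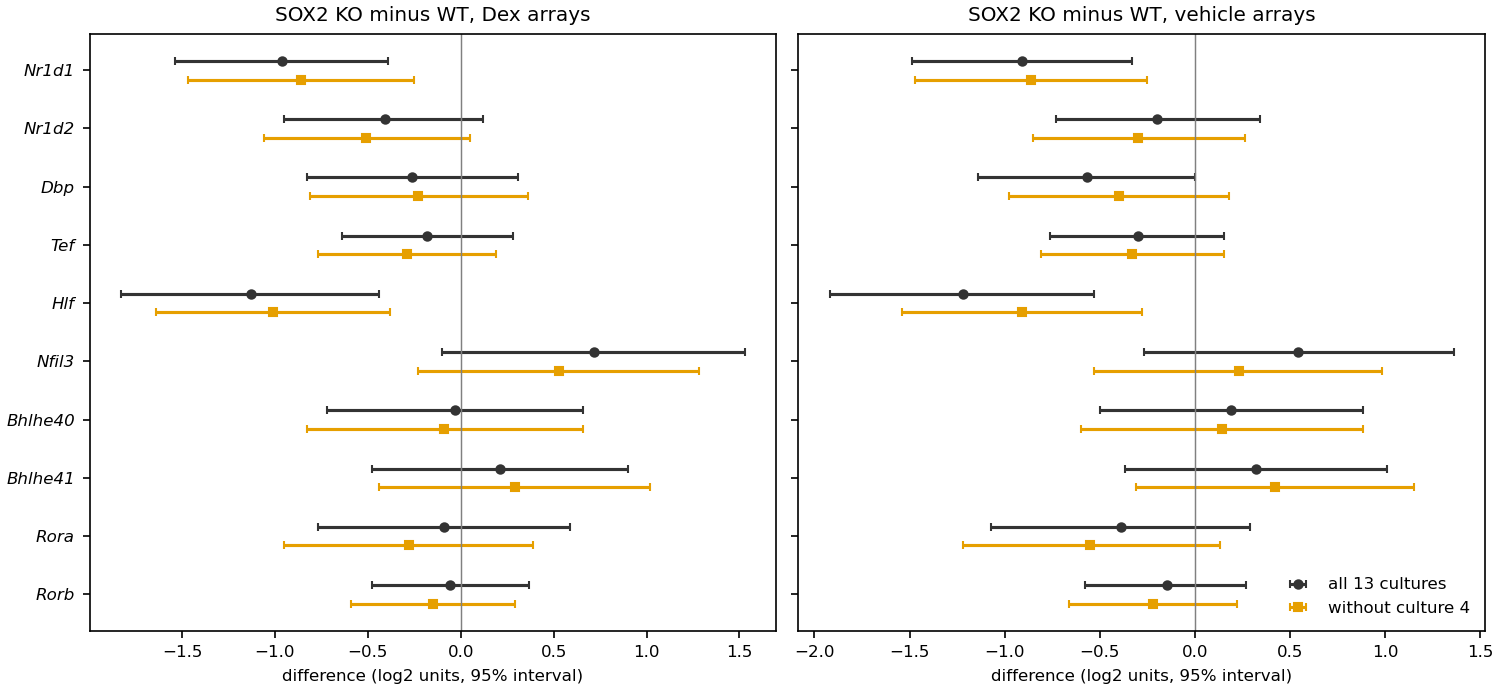
SOX2 KO minus WT difference in log2 units (x axis) with its 95% interval for each of the 10 genes, on Dex arrays (left) and vehicle arrays (right), over all 13 cultures (circles) and without culture 4 (squares). The intervals of Nr1d1 and Hlf lie below 0 in both panels and with either set of cultures; the intervals are not adjusted for the number of genes tested.

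Nr1d1 averaged 7.65 ± 0.70 (SD, n = 7) in SOX2 KO cells and 8.61 ± 0.39 (n = 6) in WT cells after Dex. After vehicle it averaged 7.93 ± 0.52 in SOX2 KO cells and 8.84 ± 0.42 in WT cells. All 7 SOX2 KO cultures were below the WT mean in each treatment, 6 of 7 were below every WT culture after Dex, and 5 of 7 after vehicle. The SOX2 KO cultures that reached into the WT range were culture 8 after Dex and cultures 7 and 10 after vehicle. The log2 difference was -0.96 ± 0.28 (SE) after Dex (limma adjusted p = 0.15) and -0.91 ± 0.28 after vehicle (adjusted p = 0.218). Without culture 4 it was -0.86 ± 0.30 in both treatments (adjusted p = 0.337 and 0.358). It was negative within each array cluster, at -0.50, -1.97 and -0.62 in clusters 1, 2 and 3 after Dex and at -0.75, -1.13 and -0.80 after vehicle, where cluster 2 rests on culture 4 as its one WT culture. The Dex and vehicle comparisons are between the same cultures, so they are not independent of each other.

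Hlf averaged 5.87 ± 0.53 (SD, n = 7) in SOX2 KO cells and 7.00 ± 0.54 (n = 6) in WT cells after Dex. After vehicle the means were 6.12 ± 0.50 in SOX2 KO cells and 7.34 ± 1.00 in WT cells. The WT vehicle arrays were the most spread, from 6.18 in culture 1 to 8.92 in culture 4. All 7 SOX2 KO cultures were below the WT mean in each treatment, 6 of 7 were below every WT culture after Dex, and 4 of 7 after vehicle. The log2 difference was -1.13 ± 0.34 (SE) after Dex (limma adjusted p = 0.173) and -1.22 ± 0.34 after vehicle (adjusted p = 0.121). Without culture 4 it was -1.01 ± 0.31 (adjusted p = 0.201) and -0.91 ± 0.31 (adjusted p = 0.319).

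The call for Hlf depended on the array cluster and on WT cultures 1 and 4. With the array cluster as a covariate the differences were -1.27 ± 0.30 after Dex (adjusted p = 0.0167) and -1.37 ± 0.30 after vehicle (adjusted p = 0.00912), both past the threshold, in fits that called 397 and 376 genes. With the cluster covariate and without culture 4, Hlf was not called, at -1.18 ± 0.30 (adjusted p = 0.0538) and -1.08 ± 0.30 (adjusted p = 0.096). Leaving out WT culture 1 gave -1.46 ± 0.34 after vehicle (adjusted p = 0.0489), also past the threshold. Over the alternatives tried with all cultures the adjusted p of Hlf ran from 0.0167 to 0.418 after Dex and from 0.00912 to 0.32 after vehicle. Within clusters 1, 2 and 3 the differences were -0.64, -1.82 and -1.41 after Dex and -0.51, -2.17 and -1.96 after vehicle.

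Nfil3 was 8.39 ± 0.49 (SD, n = 7) in SOX2 KO cells and 7.67 ± 0.83 (n = 6) in WT cells after Dex. After vehicle it was 8.26 ± 0.42 in SOX2 KO cells and 7.72 ± 1.25 in WT cells. Every SOX2 KO culture exceeded the WT mean in both treatments, but the WT range contained all SOX2 KO values after vehicle and 6 of 7 after Dex. Without culture 4, 2 of 7 SOX2 KO cultures after Dex and 3 of 7 after vehicle were below the WT mean. The differences were 0.72 ± 0.40 (SE) after Dex (limma adjusted p = 0.75) and 0.54 ± 0.40 after vehicle (adjusted p = 1.0), and 0.53 ± 0.37 and 0.23 ± 0.37 without culture 4.

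The remaining genes gave small differences with wide overlap. Dbp differed by -0.26 ± 0.28 (SE) after Dex and by -0.57 ± 0.28 after vehicle (unadjusted p = 0.0498, limma adjusted p = 0.964), and by -0.40 ± 0.28 after vehicle without culture 4. For Nr1d2 the differences were -0.41 ± 0.26 after Dex and -0.20 ± 0.26 after vehicle. Its paralog Nr1d1 was thus the one REV-ERB gene whose interval excluded 0, a contrast between the paralogs that was not tested. Tef differed by -0.18 ± 0.22 after Dex and -0.30 ± 0.22 after vehicle, and Rora by -0.09 ± 0.33 and -0.39 ± 0.33. Bhlhe40 differed by -0.03 ± 0.34 and 0.19 ± 0.34, Bhlhe41 by 0.21 ± 0.34 and 0.32 ± 0.34, and Rorb by -0.06 ± 0.21 and -0.15 ± 0.21. Without culture 4 some of these values were larger, none past the threshold. After Dex and after vehicle they were then -0.51 ± 0.27 and -0.30 ± 0.27 for Nr1d2, -0.28 ± 0.33 and -0.55 ± 0.33 for Rora, and -0.29 ± 0.23 and -0.33 ± 0.23 for Tef. Rorb then differed by -0.15 ± 0.21 and -0.22 ± 0.21, Bhlhe40 by -0.09 ± 0.36 and 0.14 ± 0.36, Bhlhe41 by 0.29 ± 0.36 and 0.42 ± 0.36, and Dbp after Dex by -0.23 ± 0.28.

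Markers of other cell types were set beside the genotype differences. Of 7 astrocyte markers, 2 fell in SOX2 KO cells in both treatments, against 0.564% of all genes called after Dex and 0.559% after vehicle. Aldoc, a glycolytic enzyme of astrocytes, differed by -1.40 ± 0.22 (SE) after Dex and -1.71 ± 0.22 after vehicle. Slc1a2, a glial glutamate transporter, differed by -2.08 ± 0.35 and -2.03 ± 0.35. Another 2 of the 7 were higher in SOX2 KO cells in each treatment, not called. The list median was -0.23 after Dex and -0.06 after vehicle, beside -0.06 and -0.03 over all genes. The mean level of the astrocyte list was 8.92 to 10.73 on SOX2 KO Dex arrays, against 9.06 to 11.13 on WT Dex arrays, and 9.04 to 10.62 on SOX2 KO vehicle arrays, against 9.09 to 10.81 on WT vehicle arrays. Of 8 neuronal markers, the synaptic gene Syt1 fell in both treatments, at -1.42 ± 0.34 and -1.59 ± 0.34, but after Dex not without culture 4 (limma adjusted p = 0.0673). In each treatment 2 of the 8 were higher in SOX2 KO cells, not called. None of 6 oligodendrocyte lineage, 7 microglial, 5 endothelial and 6 pericyte or fibroblast markers was called in these comparisons. No detection calls were used, so how far these markers lie above background is not known here. With all cultures 1 oligodendrocyte lineage marker had an unadjusted p under 0.05 in each treatment, against 7.56% of all genes after Dex and 5.17% after vehicle. So did 1 microglial and 1 endothelial marker after Dex without culture 4, against 8.38% of all genes. A marker that was not called is not shown to be unchanged. Since the arrays read bulk RNA, fewer cells of a type and less RNA per cell cannot be told apart, and the part of the astrocyte and neuronal markers in the Hlf and Nr1d1 differences was not tested.

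Levels of Nr1d2 and Rora also differed between the array clusters. Culture means of Nr1d2 were 8.94 to 9.22 in cluster 1, 8.37 to 8.89 in cluster 3 and 7.60 to 8.32 in cluster 2. Rora had culture means of 7.72 to 8.79 in cluster 1, 7.21 to 7.92 in cluster 3 and 6.88 to 7.04 in cluster 2. Since the clusters were made from all genes of these arrays, the values are a description with no test. Nr1d1 and Hlf overlapped between clusters, at 8.18 to 9.04, 6.74 to 9.13 and 7.45 to 8.50 for Nr1d1 and at 5.87 to 6.96, 5.94 to 8.26 and 5.46 to 7.85 for Hlf in clusters 1, 2 and 3. The clusters also differ in upper quartile, as given above, and the part of the array signal in these levels was not tested.

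**Figure D5:**
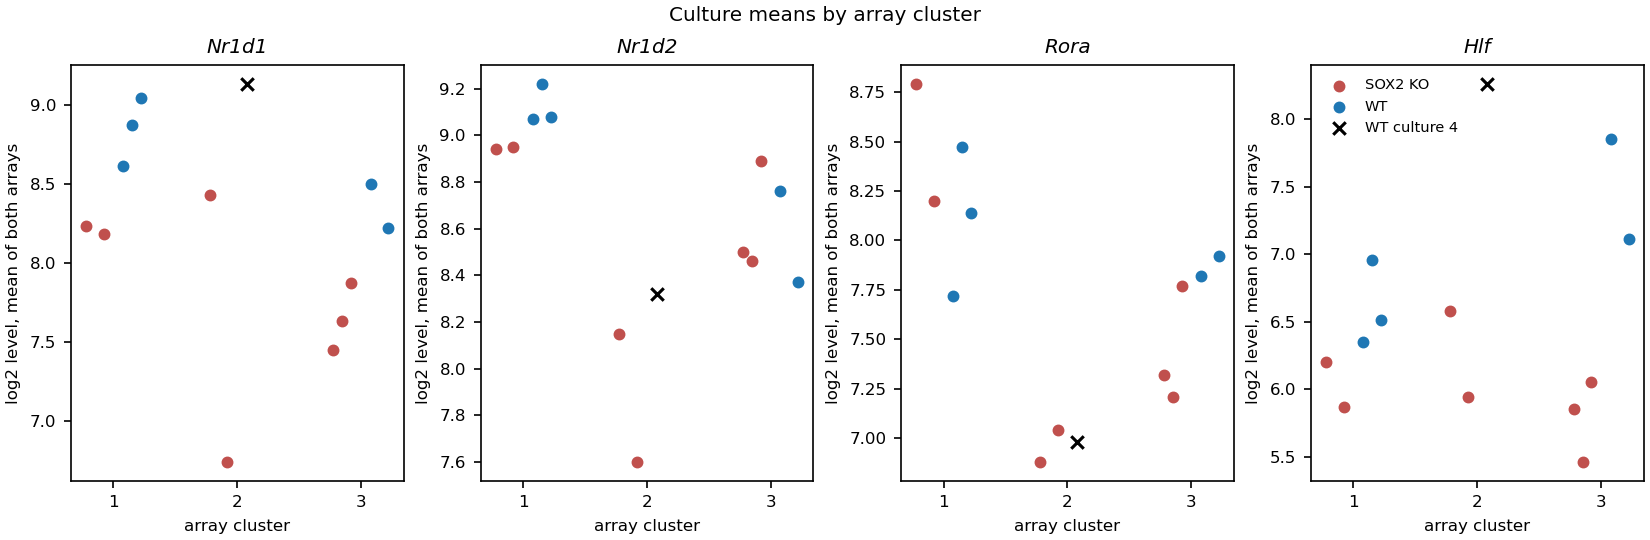
Mean log2 level of both arrays of each culture (y axis) by array cluster (x axis) for Nr1d1, Nr1d2, Rora and Hlf, with SOX2 KO cultures in red, WT cultures in blue and WT culture 4 as a black cross. Nr1d2 lies at 8.94 to 9.22 in cluster 1 and at 7.60 to 8.32 in cluster 2, and Hlf overlaps between clusters, at 5.87 to 6.96 in cluster 1 and 5.46 to 7.85 in cluster 3.

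Across arrays some of the genes varied together. Over the 24 arrays without culture 4, Nr1d1 correlated with Nr1d2 at r = 0.72 (0.58 over all 26 arrays) and with Hlf at 0.58 (0.64). Hlf and Nfil3, which act on the same D-boxes in opposite directions, correlated at -0.50 (-0.68), Dbp and Nfil3 at -0.41 (-0.55), and Dbp and Tef at 0.49 (0.40). The other pairs of D-box factors were weaker over the 24 arrays. Dbp and Hlf correlated at 0.29 (0.47), Tef and Nfil3 at -0.12 (-0.02), and Tef and Hlf at 0.03 (-0.03). Pairs outside the D-box factors were as strong, such as Nr1d1 and Rorb at 0.50 (0.32) and Bhlhe40 and Rorb at 0.50 (0.51). Tef and Bhlhe40 correlated at -0.42 (-0.39). Nr1d2 and Rora correlated at 0.56 (0.58). These values are descriptions, since the points share cultures, genotypes and array clusters.

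The genes whose levels most resembled 4 of the factors over the same 24 arrays were also listed. For Nr1d1 they were Ak4, a mitochondrial adenylate kinase, at r = 0.91 (0.89 over all 26 arrays), Slco5a1 at 0.88 (0.79) and Mtx1, a mitochondrial outer membrane protein, at 0.88 (0.80). Nr1d2 was most like Zfp827 at 0.94 (0.94), Dtnb at 0.91 (0.91) and Tmem126b at 0.91 (0.90). Dbp reached lower values, with Samd12 at 0.76 (0.72), Ano3 at 0.71 (0.77) and Mrps25 at 0.68 (0.64), and Hlf was most like Mtss2 at 0.78 (0.83), Slc22a17 at 0.76 (0.83) and 1700007K13Rik at 0.76 (0.82). The choice of genes depended on culture 4, since over all 26 arrays Slco5a1 and Mtx1 ranked 68 and 52 for Nr1d1 and Mrps25 ranked 35 for Dbp. None of the other 9 factors was among the 3 nearest genes of any of these 4.

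The other genes of the pathway were read from lists of known clock genes. Of 14 measured genes of the core loop, 0 were called in either genotype with all cultures. Of all genes 0.0718% were called in SOX2 KO cells and 0.0% in WT cells. Of the 14, 4 in SOX2 KO cells and 3 in WT cells had an unadjusted p under 0.05, against 10.2% and 3.87% of all genes. With culture 4 out of the fit 2 of 14 rose in SOX2 KO cells, against 0.251% of all genes called. They were the period genes Per1 (1.92 ± 0.15, limma adjusted p = 2.33e-06) and Per2 (1.22 ± 0.17, adjusted p = 0.00189). In WT cells without culture 4 Per1 (2.35 ± 0.18, limma adjusted p = 3.35e-06) and Per2 (1.26 ± 0.20, adjusted p = 0.0113) rose as well. There Arntl2, a paralog of the BMAL1 gene, fell by 0.93 ± 0.17 (adjusted p = 0.0381), and 0.169% of all genes were called. Culture 4 was left out because of its Per1 and Fkbp5 values, so the Per1 calls in both genotypes follow partly from that choice. The genotypes share an estimate of spread. In SOX2 KO cells the Per1 difference was 1.92 with and without culture 4 in the fit, while its SE fell from 0.44 to 0.15. For Per2 in SOX2 KO cells the difference stayed at 1.22 and the SE fell from 0.25 to 0.17. Over all 6 WT cultures the Per1 difference was 1.5 ± 2.11 (SD). The median change of the core list was 0.06 in SOX2 KO cells and -0.08 in WT cells with all cultures, and 0.06 and 0.01 without culture 4.

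Of 10 measured clock-controlled output genes, 1 rose after Dex in SOX2 KO cells, against 0.0718% of all genes called (0.251% with culture 4 out of the fit). The gene was Usp2, a deubiquitinase with strong circadian rhythm, at 1.15 ± 0.18 (limma adjusted p = 0.0134, and 0.00218 with culture 4 out of the fit). In WT cells its change of 0.34 ± 0.20 (0.51 ± 0.20 without culture 4) was not called, and the difference between genotypes of 0.81 ± 0.27 had an adjusted p of 0.999. Of 9 measured targets of the REV-ERB and ROR receptors, 0 were called and 0 had an unadjusted p under 0.05 in any of the comparisons. Over these comparisons 0.0% to 0.564% of all genes were called, and 3.3% to 10.2% had an unadjusted p under 0.05. The smallest p among them after Dex belonged to the fatty acid elongase gene Elovl3 in SOX2 KO cells, at 0.34 ± 0.17 (adjusted p = 0.516). The BMAL1 gene Arntl, the textbook target of both receptor families and chosen here after its values were seen, differed by 0.06 ± 0.17 in SOX2 KO cells and by -0.14 ± 0.18 in WT cells. Of 7 measured cofactors and regulators of these receptors, 0 were called in any of the comparisons. The coactivator gene Ncoa1 was the one with an unadjusted p under 0.05 after Dex in SOX2 KO cells, at 0.46 ± 0.15 (adjusted p = 0.356). The core, output, target and cofactor lists had 0 genes called for SOX2 KO against WT in either treatment by limma, where Arntl2 and Usp2 had unadjusted p-values under 0.05 after vehicle, at -0.83 ± 0.25 and -0.94 ± 0.28.

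For scale, a list of 20 known glucocorticoid-induced genes was read in the same fits. The list holds Per1 and Fkbp5, which set culture 4 apart, so its WT values without that culture follow partly from that choice. So do its calls in SOX2 KO cells with culture 4 out of the fit, since the genotypes share an estimate of spread. After Dex 5 of the 20 rose in SOX2 KO cells with all cultures, against 0.0718% of all genes called. With culture 4 out of the fit 12 of the 20 rose there, against 0.251%. In WT cells with all cultures 0 of 20 rose, against 0.0%, and 10 had an unadjusted p under 0.05, against 3.87%. Without culture 4, 10 of 20 rose in WT cells, against 0.169% of all genes called. The median log2 change of the list was 1.03 in SOX2 KO cells and 0.73 in WT cells (1.25 without culture 4), beside the -0.06 of the 10 clock output factors in each genotype.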

How the data were processed

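The deposited values are log2 expression of 22206 transcript clusters on 26 arrays, processed by the authors. The log2 unit was read from the values (2.22 to 19.81), and the authors' software, background correction and normalization are not given in the sources used here. Probe annotation from the platform gave 1 symbol to 19572 transcript clusters, several to 0 and none to 2634, and all 19572 were matched to RefSeq by Entrez identifier. For 55 genes with several transcript clusters the one of highest mean was kept, leaving 19505 genes. The 26 arrays limit the precision.

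The 10 genes, the gene lists, the marker lists and the tests were chosen with earlier results of these data known. The text names the 10 genes, from each list at most 4 genes called per comparison by smallest p (otherwise at most the 2 of smallest p), 4 label checks and the 3 genes most correlated with each of 4 factors. Arntl was added after its values were seen. Fits used limma 3.58.1 in R 4.3.3, with all arrays in 1 fit and Benjamini-Hochberg adjustment over all genes at 0.05. Dex contrasts had the culture as a block, with 1 Dex term per genotype. Genotype contrasts had 4 group means. Pairing comes from the sample numbers of the labels, which keep cultures of each animal separate. After removing group means, the 13 pairs correlated at 0.312 to 0.731, all over 0.1. Per the labels, cultures of each animal were kept separate, so p-values of the Dex contrasts measure the spread of Dex minus vehicle differences between such cultures. The genotype fits had no block. The correlated Dex and vehicle arrays of a culture thus entered their estimate of spread as if independent.

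The alternatives tried were a filter on low means, the mean of transcript clusters, median centring or quantile normalization of the arrays, another prior, only the arrays compared, fits with and without the block, the array cluster as a covariate, and leaving out each culture. The fits were tested on simulated data with known changes, where genes varied independently of each other. A change of 1 log2 unit was called in 90% of such genes for Dex in SOX2 KO and in 79% for Dex in WT. It was called in 54% for the difference of Dex effects. For SOX2 KO against WT it was called in 51% in vehicle and 48% in Dex (41% in both without culture 4). A gene not called there is thus not shown to be unchanged. Promoters were read from RefSeq windows of GRCm38.p6 in Python 3.11.15.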

Additional observations from a re-analysis of the deposited data

Results flagged for a closer look

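Of 84 groups of values tested for 1 culture far from the others, 14 had one. Chance would give about 1 in 20, or 4.2 of 84, for groups that are independent and not chosen by their values. These groups are neither. Beside the output factors they include Fkbp5, Per1 and Tsc22d3, and Fkbp5 and Per1 had already set culture 4 apart. The Dex minus vehicle differences also reuse levels that were tested themselves. The count of 14 therefore cannot be judged against that rate. SOX2 KO culture 12 accounted for 5 of the 14. On its Dex array the level of Nr1d1 was 6.23, against 7.48 to 8.28 in the other SOX2 KO Dex arrays. The level of Rorb there was 12.71, against 13.37 to 13.83. The Dex minus vehicle difference of culture 12 was 2.01 for Tef (the other SOX2 KO cultures -0.36 to 0.60), -1.92 for Hlf (-0.13 to 0.39) and -1.10 for Rorb (-0.09 to 0.48). These differences rest on both of its arrays. Its vehicle array held the lowest SOX2 KO vehicle level of Tef, 3.41, and the highest of Hlf, 6.90, and Rorb, 13.81. The Dex array of culture 12 also had the lowest upper quartile of signal, 9.38, and the part of that array in these values was not tested. Without culture 12 the SOX2 KO Dex differences were 0.03 ± 0.14 (SE) for Tef, 0.03 ± 0.16 for Hlf, 0.16 ± 0.11 for Rorb, -0.16 ± 0.15 for Nr1d1 and 0.42 ± 0.15 for Rora.

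WT culture 4 accounted for 6, all in genes induced by glucocorticoids. Fkbp5 was at 12.36 on its array labelled Dex (other WT cultures 14.66 to 15.39) and at 14.39 on its array labelled vehicle (13.28 to 13.68). Per1 was at 7.98 on its array labelled Dex (11.11 to 12.02). Its Dex minus vehicle differences were -2.03 for Fkbp5 (1.27 to 1.87), -2.74 for Per1 (1.91 to 3.04) and -1.67 for Tsc22d3 (1.09 to 2.23).

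The other 3 were single values. Bhlhe41 was at 9.79 on the Dex array of SOX2 KO culture 7, against 7.77 to 8.34 in the others, and its vehicle array was also high, at 9.21. Tef was at 4.73 on the vehicle array of WT culture 5, against 4.24 to 4.40. Rorb differed by 0.27 between the Dex and vehicle arrays of WT culture 5, against -0.28 to -0.10.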

How the results depend on the processing

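The number of the 10 genes called was recomputed 197 times over the 10 comparisons, and all but 3 of these gave the same count of 0. For SOX2 KO against WT in Dex the count was 1 (Hlf) with the array cluster as a covariate. For SOX2 KO against WT in vehicle it was 1 (Hlf) with that covariate and 1 (Hlf) without WT replicate 1, and leaving out each culture gave 0 to 1. In the paired comparisons, taking out the replicate block left 0 of the 10 genes called, and so did a random block in the genotype comparisons.

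Over all genes the block changed more: without it Dex in SOX2 KO gave 10 called against 14 with it, 16 against 49 with culture 4 out of the fit, and Dex in WT without culture 4 gave 7 against 33. Over the alternatives tried, the count over all genes for Dex in SOX2 KO ranged from 3 (without culture 13) to 49 (without culture 4) around 14, with 8 or 9 without culture 7, 8 or 11. Dex in WT gave 0 to 33 (without culture 4). With culture 4 out, Dex in SOX2 KO gave 16 to 81 (filter on low means) around 49, and Dex in WT 7 to 58 (without culture 12) around 33, with 19 or 20 without culture 1, 3, 5 or 6. For SOX2 KO against WT in Dex the range was 69 (without culture 1) to 397 around 110, with 71 without culture 13, and in vehicle 75 to 376 around 109. Without culture 4 it was 52 to 216 around 108 in Dex, with 52 to 70 without culture 1, 2, 3, 9 or 10 and 168 without culture 6, and 45 to 210 around 102 in vehicle, with 45 to 66 without culture 1, 2 or 13. The highest count of each genotype comparison came with the array cluster as a covariate. The cause was not tested.

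Of 1950 recomputed values of single genes, 3 were called, all for Hlf. In 67 of 100 pairs of gene and comparison no alternative changed the sign, and in the rest no value passed the threshold. The filter on low means left 8 of the 10 genes, without Hlf and Tef. No detection calls were used, so how far Hlf and Tef lie above background is not known here.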
